A study of Mus musculus with 22 samples.

Results

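Pnpla3, a lipid droplet protein with triglyceride hydrolase activity, was examined together with 9 genes of fatty acid and triglyceride synthesis (Fasn, Scd1, Acly, Acaca, Elovl6, Srebf1, Me1, Dgat2 and Thrsp) in ischemic mouse muscle. The members were named by symbol, and all probes that the array annotation gives to those symbols were taken on all 22 arrays. Of the 10 genes, 9 had a probe, with 11 probes in all, out of 18524 genes and 38563 probes on the array. No probe was annotated to Acaca, which encodes acetyl-CoA carboxylase, and that gene was not analysed here. Pnpla3 was selected on its difference in log2 intensity between the ANTI-210 and SCR muscles of these same arrays, and the other genes as its companions in lipid synthesis. For all members that difference is therefore a description, given with a standard error and no p-value. Where the limma fit over all probes calls a member, nothing is read from the call.

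The arrays measured total RNA from the gastrocnemius of C57BL/6N males, 8 to 12 weeks of age, labelled non-diabetic, that had all undergone hindlimb ischemia. On day 5 of ischemia 11 mice received an LNA-oligonucleotide against miR-210 (ANTI-210) and 11 received one of scrambled sequence (SCR), both at 12 mg/kg and by intraperitoneal injection, and muscles were taken on day 7. Both groups were ischemic, so no non-ischemic muscle and no animal without an oligonucleotide entered the comparison. The values are quantile-normalized log2 intensities, and 62.6% of the probes averaged under 6, a level treated here as dim. The correlation of 2 arrays lay between 0.947 and 0.997. The 3 mice numbered 1 to 3 in each group differ from those numbered 4 to 11 in many genes, which earlier work on these arrays had drawn from the values themselves. The labels name no batch and no chip, so values within each set of numbers stand beside the pooled ones. SCR mouse 11 stood apart in several members, and values without it are given where they matter.

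Cells make fatty acids from citrate. Acly splits citrate into acetyl-CoA, acetyl-CoA carboxylase and Fasn build palmitate from it with NADPH that Me1 helps to supply, Elovl6 lengthens the chain, and Scd1 puts in the first double bond. Dgat2 joins the last acyl chain to make triglyceride. Srebf1 encodes the transcription factors that turn these genes on, Thrsp is a nuclear protein of lipogenic tissue, and Pnpla3 transcription is known to follow feeding in liver and fat. In muscle tissue these genes can be read from the fibres and from fat cells lying between them. In bulk RNA fewer cells of a type and less RNA per cell cannot be told apart.

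The agent was directed against mmu-miR-210-3p, a miRNA that hypoxia induces. Its mature sequence, from RefSeq on GRCm38.p6 (chr7:141221407-141221428, minus strand), is shown because it is what the treatment pairs with, and capitals mark the seed, bases 2 to 8.
mmu-miR-210-3p: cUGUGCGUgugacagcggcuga

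Promoter windows of 250 bases ending at a RefSeq transcription start (GRCm38.p6) were found for 8 of the 10 genes. Those of Pnpla3, of the pair Acly and Elovl6, which varied together between mice, and of Me1, which varied against Acly, are printed with capitals on matches, on either strand, to the CCAAT box (CCAAT) and the GC box (GGGCGG). No windows of Scd1 and Dgat2 were used here. The Pnpla3 window (chr15:84167566-84167815, plus strand) held 1 CCAAT box and 2 GC boxes. The Acly window (chr11:100528001-100528250, minus strand) held 4 GC boxes, the Me1 window (chr9:86695915-86696164, minus strand) held 3, and the Elovl6 window (chr3:129532136-129532385, plus strand) held neither motif. A match is a description of letters, not a site.
Pnpla3: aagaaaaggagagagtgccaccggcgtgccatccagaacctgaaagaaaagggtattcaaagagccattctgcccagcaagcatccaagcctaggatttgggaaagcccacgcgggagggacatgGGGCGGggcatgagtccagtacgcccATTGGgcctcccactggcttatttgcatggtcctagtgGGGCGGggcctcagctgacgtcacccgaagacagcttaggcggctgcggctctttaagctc
Acly: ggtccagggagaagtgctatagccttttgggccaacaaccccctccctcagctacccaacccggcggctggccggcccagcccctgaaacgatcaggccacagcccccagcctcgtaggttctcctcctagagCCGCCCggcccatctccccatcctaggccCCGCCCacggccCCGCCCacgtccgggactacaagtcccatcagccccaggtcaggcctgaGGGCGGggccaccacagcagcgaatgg
Elovl6: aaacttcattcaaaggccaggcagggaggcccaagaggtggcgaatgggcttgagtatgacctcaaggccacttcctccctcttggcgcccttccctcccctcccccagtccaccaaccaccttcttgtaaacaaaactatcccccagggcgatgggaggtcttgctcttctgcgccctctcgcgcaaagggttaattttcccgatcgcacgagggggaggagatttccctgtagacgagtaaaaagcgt
Me1: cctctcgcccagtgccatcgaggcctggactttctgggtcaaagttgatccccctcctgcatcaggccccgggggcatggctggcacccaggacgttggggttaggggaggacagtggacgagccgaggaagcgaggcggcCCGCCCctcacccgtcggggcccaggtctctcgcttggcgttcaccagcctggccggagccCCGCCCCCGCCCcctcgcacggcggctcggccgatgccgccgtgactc

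Such matches are common. A CCAAT box lies in 33.9% and a GC box in 32.7% of 32851 mouse windows of this length. Of the 11 windows of the members, where Srebf1 and Me1 have more than 1 start, 6 held a CCAAT box and 5 a GC box. None held the E-box CACGTG, present in 6.02% of all windows, or the sterol regulatory element letters TCACNCCAC, present in 1.05%. The printed Acly and Elovl6 windows shared none of the motifs searched.

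Pnpla3 was higher in ANTI-210 muscles than in SCR muscles. Its log2 intensity was 8.53, 8.07, 8.46, 7.50, 7.30, 7.55, 7.70, 7.30, 7.58, 7.45 and 7.21 in ANTI-210 mice 1 to 11, against 6.90, 7.27, 7.42, 7.63, 7.27, 6.57, 6.71, 7.08, 7.02, 7.02 and 6.65 in SCR mice 1 to 11. All 11 ANTI-210 mice lay above the SCR median of 7.02, and 4 lay above the highest SCR mouse. Conversely 7 SCR mice lay below the lowest ANTI-210 mouse, and the groups overlapped between 7.21 and 7.63. How many of all genes separate as far was not counted. Pnpla3 was selected on this contrast, so nothing is read from these counts. The means were 7.70 ± 0.46 in ANTI-210 mice and 7.05 ± 0.33 in SCR mice (SD, n = 11 each), a log2 difference of 0.65 with a standard error of 0.17.

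The size of the Pnpla3 difference varied with the set of mice. ANTI-210 mice 1 to 3 were the 3 highest of all, and in that set the difference was 1.16 (SE 0.18, n = 3 each). Among mice 4 to 11 it was 0.46 (SE 0.13, n = 8 each), with ANTI-210 values of 7.21 to 7.70 and a single SCR mouse, number 4 at 7.63, above the ANTI-210 median of that set. Leaving out any 1 mouse gave 0.56 to 0.70, and without SCR mouse 11 it was 0.61.

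**Figure D1:**
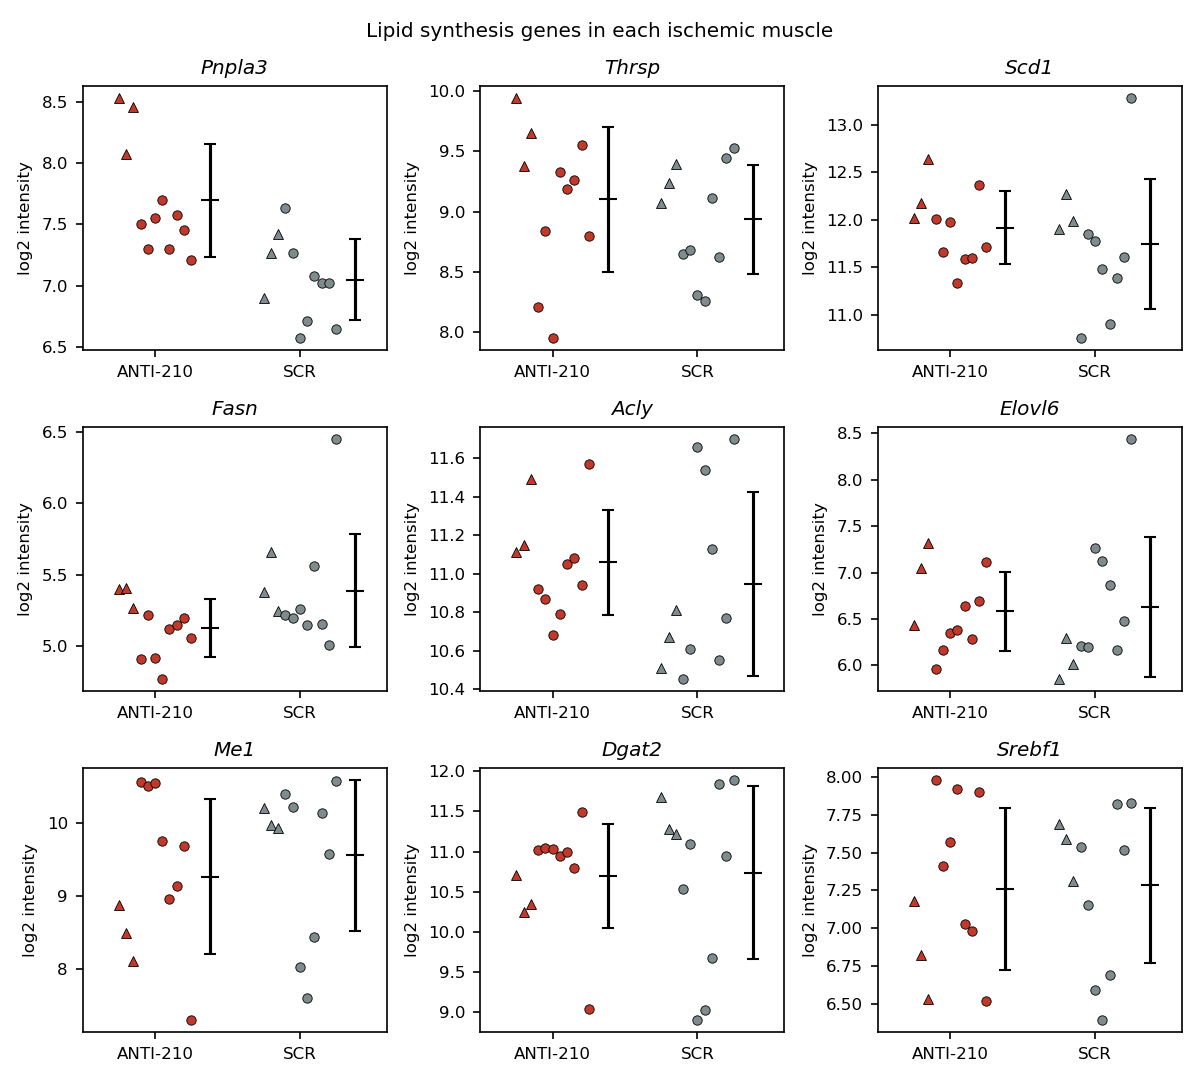
Log2 intensity (vertical axis) of the 9 measured genes in each ischemic muscle, 11 ANTI-210 mice at left and 11 SCR mice at right in each panel, triangles for replicate numbers 1 to 3 and circles for 4 to 11, with the mean and SD as a bar beside each group. Pnpla3, which was selected on this contrast, is higher in ANTI-210 mice with a partial overlap. In the other 8 panels the groups overlap widely, and SCR mouse 11 is the highest of all mice in Scd1, Fasn, Acly and Elovl6.

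The enzymes that make and desaturate fatty acids had smaller differences with wide overlap of the groups. Acly had a lowest, median and highest log2 intensity of 10.68, 11.05 and 11.57 in ANTI-210 mice, against 10.45, 10.77 and 11.70 in SCR mice. Although 10 of 11 ANTI-210 mice were above the SCR median, SCR mice spread more widely and held both ends of the range. The difference was 0.11 (SE 0.16), and it was 0.59 (SE 0.13) in numbers 1 to 3 and -0.06 (SE 0.20) in numbers 4 to 11.

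Fasn, the fatty acid synthase, was dim on this array. It ran from 4.77 over a median of 5.15 to 5.41 in ANTI-210 mice, against 5.01, 5.25 and 6.45 in SCR mice, the last value being SCR mouse 11. Fasn was lower by 0.26 in ANTI-210 mice (difference -0.26, SE 0.13), and the difference was -0.16 without SCR mouse 11. Its size thus depended on a single mouse.

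Scd1, the stearoyl-CoA desaturase, was bright. It had a lowest, median and highest value of 11.33, 11.97 and 12.64 in ANTI-210 mice, against 10.75, 11.77 and 13.28 in SCR mice, where mouse 4 was the lowest and mouse 11 the highest. The groups overlapped throughout, with 6 of 11 ANTI-210 mice above the SCR median. The difference was 0.17 (SE 0.23) with all mice and 0.32 without SCR mouse 11.

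Elovl6, the elongase of saturated chains, reached 5.96, 6.44 and 7.32 in ANTI-210 mice as lowest, median and highest, against 5.85, 6.30 and 8.44 in SCR mice. SCR mouse 11 was again far above the rest, and the difference of -0.05 (SE 0.25) became 0.13 without it. In numbers 1 to 3 the difference was 0.88 (SE 0.24) and in numbers 4 to 11 it was -0.40 (SE 0.29), of opposite sign. Numbers 4 to 11 include SCR mouse 11, and the difference in that set without this mouse was not computed. A dimmer second Elovl6 probe averaged 4.51 in ANTI-210 and 4.49 in SCR mice, at the array's floor.

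Me1 and Dgat2 varied most of the members between mice of one group. Me1, the cytosolic malic enzyme, ranged from 7.29 over a median of 9.14 to 10.56 in ANTI-210 mice, against 7.60, 9.97 and 10.58 in SCR mice. Its SD within groups of 1.05 exceeded that of 98.6% of the 8828 genes averaging 6 or more, and its difference was -0.29 with an SE of 0.43. Dgat2, a triglyceride-forming acyltransferase, had 9.04, 10.95 and 11.49 in ANTI-210 mice, against 8.90, 11.10 and 11.89 in SCR mice. Only 1 ANTI-210 mouse lay above the SCR median, but 3 SCR mice lay above and 2 below all ANTI-210 mice, and the difference was -0.04 (SE 0.37).

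Srebf1 had 6.52, 7.18 and 7.98 in ANTI-210 mice, against 6.39, 7.52 and 7.83 in SCR mice, with a difference of -0.03 (SE 0.22). Its second probe averaged 4.47 and 4.46 in ANTI-210 and SCR mice, at the floor. All of these 3 genes were lower in ANTI-210 mice in numbers 1 to 3. The differences there were -1.55 for Me1, -0.96 for Dgat2 and -0.69 for Srebf1 (SE 0.20, 0.17 and 0.18). In numbers 4 to 11 they were 0.18, 0.31 and 0.22 (SE 0.54, 0.47 and 0.26), each within 1 SE of 0. The pooled values thus average lower values in numbers 1 to 3 with differences of no clear direction in numbers 4 to 11.

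Thrsp, a lipogenic protein that thyroid hormone induces, had a lowest, median and highest value of 7.95, 9.26 and 9.94 in ANTI-210 mice, against 8.26, 9.07 and 9.53 in SCR mice. ANTI-210 mice held both ends, 3 above and 2 below every SCR mouse. The difference was 0.16 (SE 0.22), 0.42 in numbers 1 to 3 and 0.07 in numbers 4 to 11.

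In the limma fit over all probes, 3.47% of genes had an unadjusted p under 0.05, 1.45% higher and 2.01% lower in ANTI-210 mice, and 0.00519% of probes (2 of 38563) had an adjusted one. Of the 9 members 1 was in that first share, Pnpla3, and since the contrast led to the choice of Pnpla3 nothing is read from the count. The median difference of the members was -0.03, against 0.00 over all genes (-0.0036 before rounding), with 4 members above 0 and 5 below. Pnpla3 was not among the probes past the adjusted threshold.

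The rest of the lipid pathway showed no gene past the unadjusted threshold. This held for 25 measured genes of fatty acid synthesis and desaturation, 14 of triglyceride synthesis, 20 of the patatin family, lipid droplets and lipolysis, 12 regulators of the sterol and carbohydrate response and 16 of cholesterol synthesis and uptake, against the 3.47% of all genes. The limma adjusted p over all probes was 1 for every gene of these lists. Their median log2 differences were 0.06, -0.05, 0.00, -0.04 and 0.00 in that order.

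The smallest limma p-values of the fatty acid list belonged to Scd2, a desaturase (0.18, SE 0.09, unadjusted p = 0.0626, 7.51 in ANTI-210 and 7.33 in SCR mice), and to Elovl5, an elongase of polyunsaturated chains (0.26, SE 0.14, p = 0.0742). Acsl5, an acyl-CoA synthetase, followed with 0.23 (SE 0.19) and Scd3, which was dim, with -0.05. Scd2 and Elovl5 had differences of 0.58 and 0.87 in numbers 1 to 3 and of 0.03 and 0.03 in numbers 4 to 11. Both were far larger in the first set of mice.

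Closest to the threshold among the triglyceride genes was Dgat1, the other diacylglycerol acyltransferase, with -0.09 (SE 0.08), then Agpat4 with 0.22, Mogat1 with -0.02 and Gpam, the first enzyme of glycerolipid synthesis, with -0.15. Of the relatives of Pnpla3, Pnpla7, a lysophospholipase, had -0.18 (SE 0.12, limma unadjusted p = 0.151). Cideb had 0.07, Hilpda, a hypoxia-induced lipid droplet protein, 0.17 and Cidec, which enlarges droplets in fat cells, 0.40 (SE 0.35). No relative of Pnpla3 in the list passed the test.

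Among the regulators Mlx, the partner of the carbohydrate-responsive factors, had 0.23 (SE 0.13, limma unadjusted p = 0.0883), with 0.14 in numbers 1 to 3 and 0.26 in numbers 4 to 11. Mbtps2, a protease that releases SREBP proteins, had 0.13, Ppargc1b, a coactivator, -0.15 and Usf2 -0.09. In the cholesterol list Ebp had 0.15, Tm7sf2 -0.15, Fdps -0.08 and Stard4, a sterol carrier, 0.16, all with standard errors between 0.07 and 0.13.

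**Figure D2:**
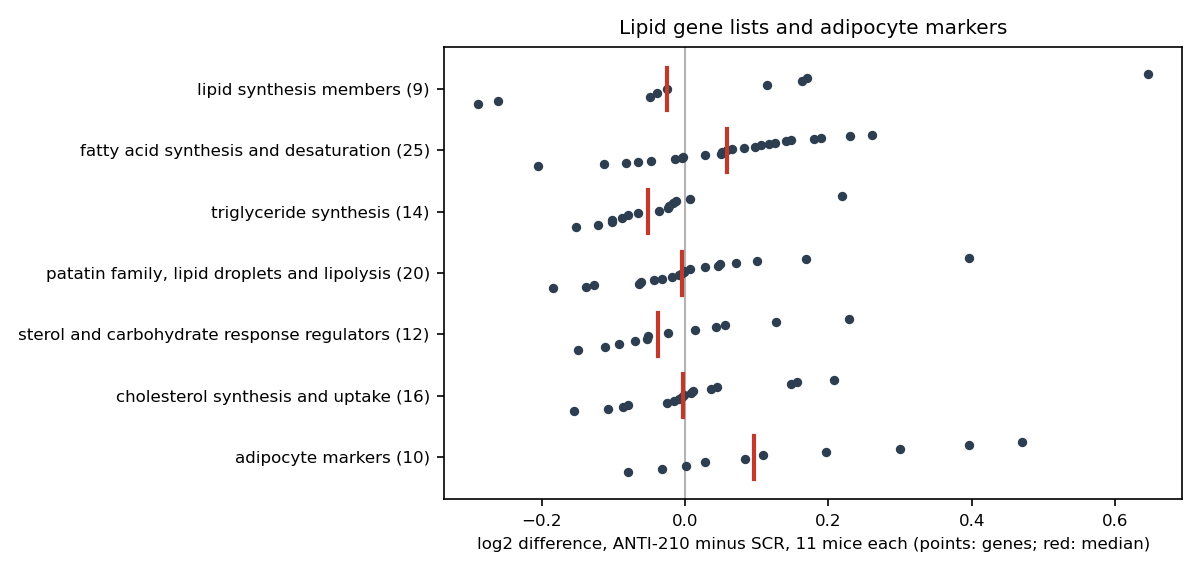
Log2 difference, ANTI-210 minus SCR, 11 mice each (horizontal axis), of each measured gene (points) in the members, 5 lipid gene lists and the adipocyte markers, with the number of genes in parentheses and the median as a red line. The point at 0.65 is Pnpla3, which was selected on this difference, so nothing is read from its distance to the others. The list medians lie between -0.05 and 0.10.

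Within numbers 1 to 3 these lists looked different. There 34.6% of all genes had an unadjusted limma p under 0.05, with 3 mice a group. The fatty acid list had 11 higher and 5 lower of 25, the triglyceride list 2 and 6 of 14, the patatin and droplet list 4 and 8 of 20, the regulators 2 and 6 of 12, and the cholesterol list 4 and 3 of 16. In the same 6 mice 4 of 5 regenerating muscle markers were higher in ANTI-210 (median difference 0.92), as were 4 of 7 macrophage markers with 1 lower, all 5 Schwann cell markers, 4 of 5 fibroblast markers, 4 of 10 adipocyte markers (median difference 0.28) and 3 of 6 endothelial markers, but 0 of 9 mature muscle fibre and 0 of 6 epidermis markers. Within numbers 4 to 11, where 2.55% of all genes passed, none of the 5 lists had a gene past the threshold in either direction. The part of the other cell types in the differences of numbers 1 to 3 was not tested.

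Fat cells can be a further source of these transcripts, and their share in these muscles was not measured. Of 10 measured adipocyte markers 4 averaged 6 or more. The hormone gene Adipoq had a mean of 9.96 ± 0.52 in ANTI-210 mice and 9.66 ± 0.69 in SCR mice (SD, n = 11 each), a difference of 0.30 (SE 0.25). Lep had 7.24 ± 0.59 in ANTI-210 mice and 6.77 ± 0.95 in SCR mice, Cidec had 8.13 ± 0.74 in ANTI-210 mice and 7.74 ± 0.94 in SCR mice, and Pparg had 7.94 ± 0.31 in ANTI-210 mice and 7.83 ± 0.31 in SCR mice. In the limma fit none of these passed the test. SCR mouse 11 was the highest SCR mouse for all 4. Retn, at the floor with 4.57 in ANTI-210 and 4.65 in SCR mice, was the single marker past the unadjusted threshold (p = 0.0382), lower by a difference of -0.08, and the probe of Fabp4, a defining fat cell gene, was also at the floor with 4.52 in both groups. The mean of the list ran from 5.95 to 6.86 in ANTI-210 mice and from 5.61 to 7.10 in SCR mice.

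How the members varied between mice did not use the contrast, because the group mean was taken out of every gene first. Pearson correlations over the 22 mice were tested by permuting mice within groups (100000 permutations, two-sided, smallest possible p = 1e-05) and adjusted by Benjamini-Hochberg. Over the 36 pairs of members 9 passed after adjustment, 6 positive and 3 negative. The share of pairs of other genes that would pass was not computed. Nothing particular to the members is therefore read from this count. The groups of genes below are those linked by the positive passing pairs, so they depend on the threshold. Across them, Fasn and Elovl6 had r = 0.64 and Scd1 and Elovl6 0.50 (permutation adjusted p = 0.064 and 0.134). These were as low as 0.20 and 0.09 with 1 mouse left out. Scd1 and Thrsp, both linked to Fasn, had r = 0.35 with each other (permutation adjusted p = 0.21).

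The first group was Me1, Dgat2 and Srebf1. Srebf1 and Me1 had r = 0.89 (permutation p = 1e-05, the smallest possible, adjusted p = 9e-05; Spearman rho 0.82, p = 1e-05), which was 0.84 without the 2 mice farthest in Srebf1 and 0.87 within numbers 4 to 11. Me1 and Dgat2 had r = 0.85 (permutation p = 1e-05, adjusted p = 9e-05; rho 0.73, p = 9e-05), 0.76 without the 2 farthest mice and 0.86 within numbers 4 to 11. Srebf1 and Dgat2 had r = 0.84 (permutation p = 1e-05, adjusted p = 9e-05; rho 0.76, p = 3e-05), with 0.77 and 0.86. Leaving out any 1 mouse left all 3 at 0.80 or more.

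The second group was Acly and Elovl6, with r = 0.87 (permutation p = 1e-05, adjusted p = 9e-05; rho 0.84, p = 2e-05), 0.83 without the 2 mice farthest in Acly and 0.86 within numbers 4 to 11. These ran against the first group. Acly had r = -0.70 with Me1 (permutation p = 0.00056, adjusted p = 0.00403; rho -0.68, p = 0.00029), -0.93 without the 2 farthest mice and -0.65 within numbers 4 to 11. It had r = -0.63 with Srebf1 (permutation p = 0.00179, adjusted p = 0.0107; rho -0.59, p = 0.00265), with -0.86 and -0.55. With Dgat2 it had r = -0.61 (permutation p = 0.00787, adjusted p = 0.0315; rho -0.52, p = 0.0275), with -0.84 and -0.55. Within numbers 4 to 11 none of these 3 negative correlations passed (adjusted p = 0.0582, 0.161 and 0.201 in the order given). The correlation with Dgat2 stood at the edge of the threshold. Its adjusted p was 0.0518 to 0.125 without ANTI-210 mouse 11 or without any of SCR mice 1, 2, 3, 5, 6, 7, 8, 9 and 10, where r lay between -0.51 and -0.61. In the other direction, the lowest r of Acly with 1 mouse left out was -0.92 with Me1, -0.85 with Srebf1 and -0.88 with Dgat2. SCR mouse 11 was the highest of all mice in Acly, as in Me1 and Dgat2.

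For Elovl6 the opposition depended on SCR mouse 11, which was the highest mouse in Elovl6 and also in Me1 and Dgat2. Elovl6 had r = -0.47 with Me1, -0.39 with Srebf1 and -0.34 with Dgat2 over all mice, none past the adjusted threshold (permutation, adjusted p = 0.0954, 0.175 and 0.299), whereas the rank correlations were rho -0.64, -0.52 and -0.53 (permutation adjusted p = 0.00858, 0.048 and 0.0692). Without SCR mouse 11 these were -0.89, -0.80 and -0.81, with adjusted p of 6e-05, 0.000288 and 0.000288 in the permutation test. Within numbers 4 to 11, which include that mouse, they were -0.35, -0.22 and -0.19.

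The third group was Fasn with Scd1 and Thrsp, and here a correlation depended on SCR mouse 11. Fasn and Scd1 had r = 0.67 (permutation p = 0.00688, adjusted p = 0.0315; rho 0.49, p = 0.0243), but r = 0.33 without SCR mouse 11 (adjusted p = 0.389) and 0.36 without the 2 mice farthest in Fasn. The relation rests on those mice, and it also lost its call without ANTI-210 mouse 7 (0.64, adjusted p = 0.0686) and SCR mouse 2 (0.65, adjusted p = 0.0768). Fasn and Thrsp had r = 0.49 (permutation p = 0.00703, adjusted p = 0.0315; rho 0.54, p = 0.0107), 0.63 without the 2 farthest mice and 0.44 within numbers 4 to 11, where neither this pair nor Fasn and Scd1 passed (adjusted p = 0.201 and 0.205). Its adjusted p was 0.0521 to 0.0932 without ANTI-210 mice 1, 4 or 6 or without SCR mice 2, 5, 7, 9 or 11, each in turn.

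Pnpla3 passed the test with none of the other members. Of its 8 correlations with the other members, adjusted over those 8, none passed. The highest was with Thrsp, r = 0.45 (permutation p = 0.0464, adjusted p = 0.371; rho 0.45, p = 0.0416, adjusted p = 0.333), which was 0.21 without the 2 mice farthest in Pnpla3, ANTI-210 mice 1 and 3, and 0.02 within numbers 4 to 11. With Scd1 it was 0.01, with Me1 0.03, with Fasn 0.04, with Srebf1 -0.05 and with Dgat2 0.12.

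With Acly the relation of Pnpla3 depended on the set of mice. It was r = -0.28 over all 22 (permutation p = 0.172, adjusted p = 0.69, rho -0.31, p = 0.146). Without the 2 farthest mice it was -0.62 (permutation p = 0.00668, unadjusted), which did not pass after adjustment. Over the 16 mice of numbers 4 to 11 it was -0.83 (permutation p = 0.00024, adjusted p = 0.00192). With Elovl6 it was -0.21 over all mice (permutation p = 0.321, adjusted p = 0.855, rho -0.25, p = 0.258). It was -0.47 without the 2 farthest and -0.70 in numbers 4 to 11 (permutation p = 0.0113, adjusted p = 0.0453). The set of numbers 4 to 11 was drawn from the values of these arrays and leaves out the mice of highest Pnpla3. Nothing is therefore read from the p-values within it. ANTI-210 mice 1 to 3 had the highest Pnpla3 of all mice, 8.07 to 8.53, with Acly at 11.11 to 11.49. Their Acly values minus the group mean were 0.05, 0.09 and 0.43.

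**Figure D3:**
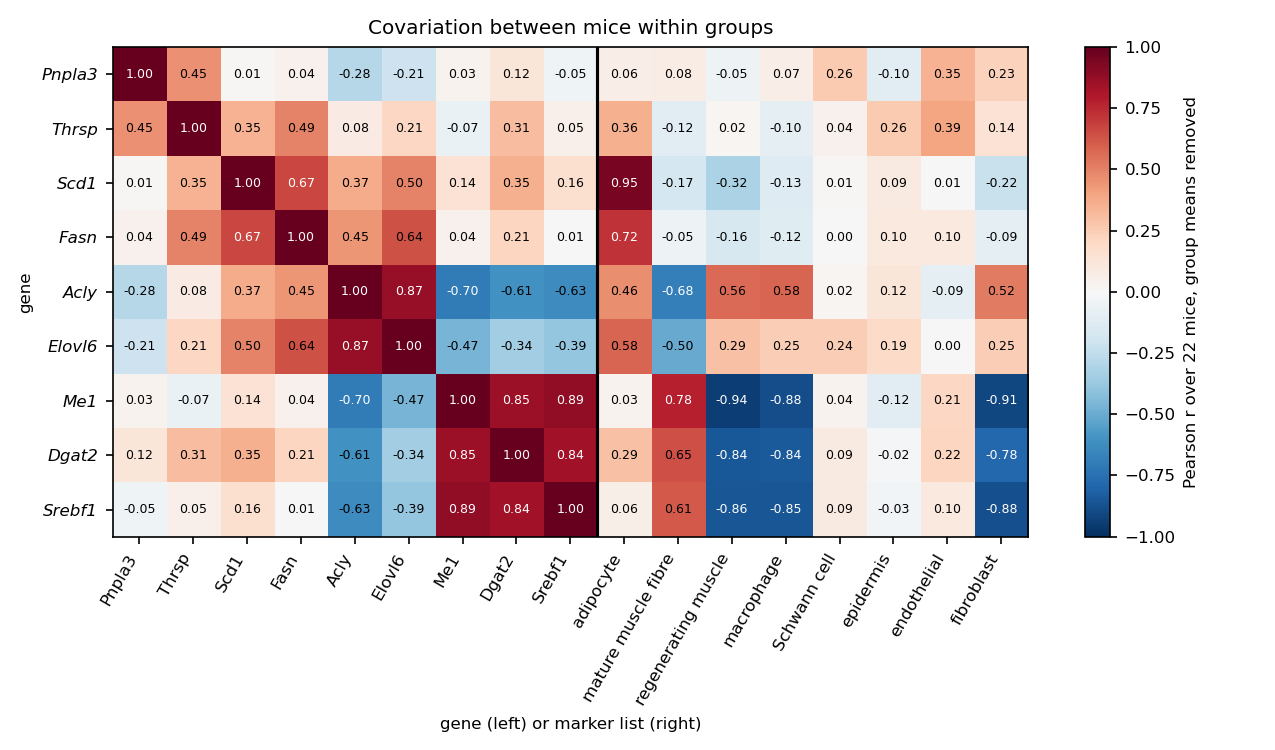
Pearson r over 22 mice after removal of group means (colour and printed value), for each measured gene (rows) with each other gene (columns at left) and with the mean of each of 8 marker lists (columns at right). Me1, Dgat2 and Srebf1 form a positive block that runs from -0.78 to -0.94 with regenerating, macrophage and fibroblast markers, Acly and Elovl6 form a second, Scd1 follows the adipocyte markers at 0.95, and the Pnpla3 row holds no value beyond 0.45.

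The groups of genes did not each go with their own cell type markers. The first and second groups passed with some of the same lists, in opposite sign. The regenerating, macrophage and fibroblast lists deviated from their group means in the same direction, except in ANTI-210 mouse 1 and SCR mice 2 and 3. Relations with these lists are therefore not read as separate. Each member was set against the mean of 8 marker lists, 72 relations adjusted together, and 18 passed. How often other genes would pass with these lists was not computed, so nothing particular to the members is read from that count. Scd1 followed the adipocyte markers with r = 0.95 (permutation p = 1e-05, adjusted p = 9e-05; rho 0.90, p = 1e-05), 0.87 without the 2 farthest mice (SCR 11 and SCR 4), 0.95 within numbers 4 to 11 and at least 0.90 whichever mouse was left out. Fasn had r = 0.72 with them (permutation p = 0.00275, adjusted p = 0.0132; rho 0.49, p = 0.0215, adjusted p = 0.0735), but 0.44 without the 2 farthest mice (permutation p = 0.0568) and 0.42 without SCR mouse 11 (adjusted p = 0.215), so it rests on that animal, and within numbers 4 to 11 its 0.73 did not pass (adjusted p = 0.193). No Scd1 probe was part of the list.

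The regenerating muscle list holds genes such as the perinatal myosin gene Myh8 and the myogenic factor Myog, and only its mean was used. Me1 fell as that mean rose between mice. Its r was -0.94 with that list (permutation p = 1e-05, adjusted p = 9e-05; rho -0.92, p = 1e-05), -0.91 without the 2 farthest mice and -0.94 within numbers 4 to 11. It was -0.88 with macrophage markers, -0.91 with fibroblast markers and 0.78 with mature muscle fibre markers (permutation adjusted p = 9e-05, 9e-05 and 0.000327; rho -0.84, -0.93 and 0.77, p = 2e-05, 1e-05 and 0.00011). All 4 kept their call whichever mouse was left out.

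Srebf1 and Dgat2 repeated this pattern. With the regenerating markers Srebf1 had r = -0.86 and Dgat2 -0.84 (permutation adjusted p = 9e-05 for both; rho -0.82 and -0.79, p = 4e-05 and 2e-05), with macrophage markers -0.85 and -0.84, and with fibroblast markers -0.88 and -0.78 (permutation adjusted p at most 0.000144; rho between -0.74 and -0.86, p at most 0.00012). Within numbers 4 to 11 these 6 values lay between -0.84 and -0.92. With mature muscle fibre markers Srebf1 had 0.61 (permutation adjusted p = 0.0131; rho 0.56, p = 0.00971) and Dgat2 0.65 (adjusted p = 0.00316; rho 0.50, p = 0.0114), but without the 2 farthest mice 0.44 and 0.54, where neither passed after adjustment (p = 0.222 and 0.0813). The Srebf1 value also lost its call without ANTI-210 mouse 11 (0.55, adjusted p = 0.0526) and within numbers 4 to 11 (0.57, adjusted p = 0.0875). The lowest Dgat2 values of all mice belonged to SCR mice 6, 7 and 8 (8.90, 9.03 and 9.68) and to ANTI-210 mouse 11 (9.04), and the regenerating list was highest in its group in ANTI-210 mouse 11 (11.94) and SCR mouse 6 (11.91).

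Acly ran the other way. It had r = -0.68 with mature muscle fibre markers (permutation p = 0.00012, adjusted p = 0.00072; rho -0.70, p = 0.0001), -0.61 without the 2 farthest mice and -0.69 within numbers 4 to 11. It had 0.56 with regenerating and 0.58 with macrophage markers (permutation adjusted p = 0.0337 for both; rho 0.60 and 0.58, p = 0.00325 and 0.00573). Without the 2 farthest mice, SCR mice 6 and 7, these were 0.35 and 0.32, and neither passed (permutation adjusted p = 0.366 and 0.399). Both calls were also lost, at adjusted p of 0.0506 to 0.139, without any 1 of ANTI-210 mice 3, 6, 7 and 11 and SCR mice 1, 3, 5, 6, 7, 8, 9 and 10, and that of the regenerating list without ANTI-210 mouse 5 or SCR mouse 2, where r lay between 0.47 and 0.58. Elovl6 had -0.50 with mature fibre markers (permutation adjusted p = 0.0305; rho -0.62, p = 0.00128), and the call was lost without the 2 farthest mice (-0.41, adjusted p = 0.312), within numbers 4 to 11 (-0.50, adjusted p = 0.0875), without ANTI-210 mouse 3 (-0.45, adjusted p = 0.0719) and without ANTI-210 mouse 11 (-0.49, adjusted p = 0.0722). Within numbers 4 to 11 Acly had 0.51 with regenerating and 0.57 with macrophage markers, also without a call (permutation adjusted p = 0.202 and 0.193). Without SCR mouse 11 Elovl6 had 0.83 with regenerating, 0.79 with macrophage and 0.81 with fibroblast markers, and Acly 0.87 with fibroblast markers (adjusted p at most 0.00036 in the permutation test), against 0.29, 0.25, 0.25 and 0.52 with all mice. SCR mouse 11 also ran against the relations of Acly with the regenerating and macrophage lists. Its deviations from the group mean were 0.75 in Acly and -1.35 and -0.90 in those lists. With 1 mouse left out, the highest r of Acly with them was 0.89 and 0.94.

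Pnpla3 and Thrsp passed with none of the 8 lists. For Pnpla3 r lay between -0.10 with epidermis and 0.35 with endothelial markers (permutation adjusted p = 0.938 and 0.396; rho -0.07 and 0.38, p = 0.751 and 0.092), and with adipocyte markers it was 0.06. The adipocyte value depended on the mice used. It was 0.59 without SCR mice 4 and 11, the 2 farthest in that list (permutation p = 0.0162, unadjusted). Within numbers 4 to 11 it was -0.55 (permutation p = 0.0837, unadjusted). With mature muscle fibre markers r was 0.08 over all mice and 0.52 within numbers 4 to 11 (permutation p = 0.0152, unadjusted). None of these passed after adjustment. In the limma fit of the contrast itself 4 of the 6 endothelial markers were higher in ANTI-210 mice at an unadjusted p under 0.05, where 1.45% of all genes were, and none after adjustment. Within numbers 1 to 3 it was 3 of 6, and within numbers 4 to 11 it was 0 of 6. Thrsp had 0.36 with adipocyte and 0.39 with endothelial markers (permutation adjusted p = 0.287 and 0.28; rho 0.44 and 0.38, p = 0.0477 and 0.0872). The between-mouse variation of Pnpla3 around its group means, SD 0.40, exceeded that of 70.9% of the genes averaging 6 or more.

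**Figure D4:**
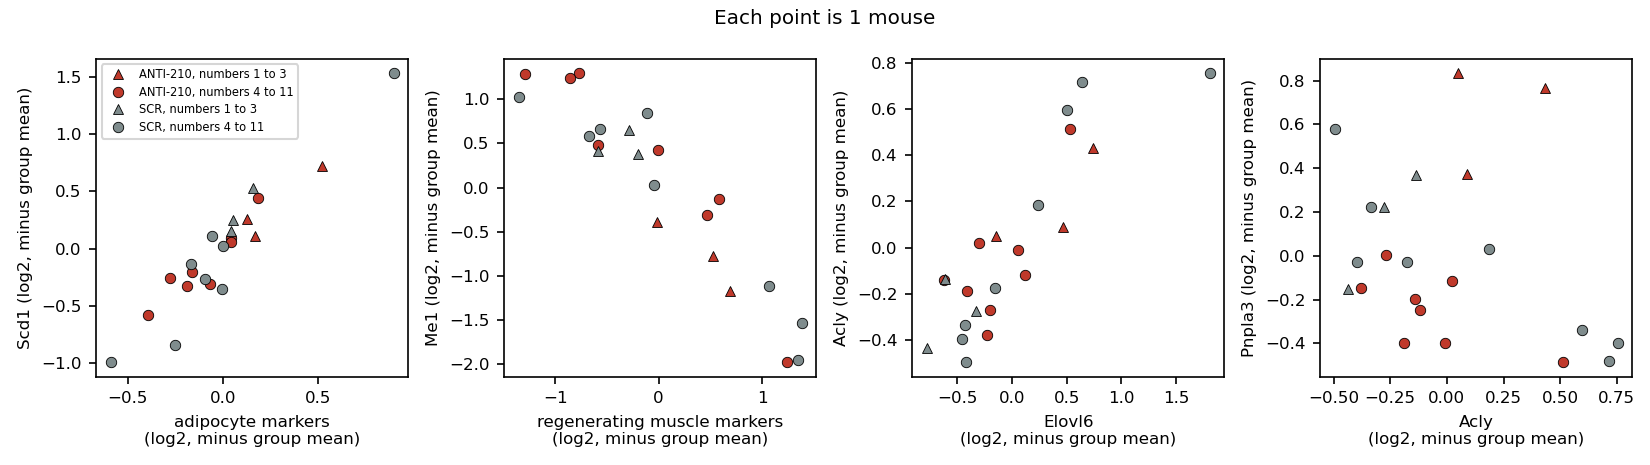
Log2 values minus the group mean, 1 point a mouse, red for ANTI-210 and grey for SCR, triangles for replicate numbers 1 to 3 and circles for 4 to 11: Scd1 (vertical) against the adipocyte list, Me1 against the regenerating muscle list, Acly against Elovl6 and Pnpla3 against Acly (horizontal). The first 3 panels follow r = 0.95, -0.94 and 0.87, and in the last the red triangles of ANTI-210 mice 1 and 3 lie above the falling line of the other mice, for an r of -0.28 over all mice.

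Other genes resembled Pnpla3 more than the members did. Among 8827 genes averaging 6 or more, the 8 with the highest r over the 22 mice, group means removed, were Dot1l (0.84), which encodes a histone H3 methyltransferase, Adm (0.81), the gene of the vasodilator adrenomedullin, Dcn (0.77), a small proteoglycan that was also in the fibroblast list, Rasa4 (0.77), a Ras regulator, the histone gene H2bc11 (0.76), the transcription factor Klf13 (0.76), Rapgef2 (0.76), an exchange factor of Rap proteins, and the ubiquitin ligase Rnf125 (0.74). These values come from a ranking of many genes and are a description. Within numbers 4 to 11 Dot1l kept 0.82, Rasa4 had 0.71, H2bc11 0.63 and Dcn 0.55, whereas Klf13 had 0.36, Adm 0.34, Rnf125 0.20 and Rapgef2 0.17. By this measure Thrsp ranked 295, Dgat2 2299, Me1 3518, Scd1 3810, Srebf1 4676, Elovl6 6902 and Acly 7540.

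None of the 8 passed the test between the groups. Their log2 differences, ANTI-210 minus SCR, ran from -0.05 for H2bc11 (SE 0.07) over -0.04 for Dot1l (SE 0.11) to 0.19 for Rnf125 (SE 0.21), with unadjusted limma p-values of 0.355 for Rapgef2 to 0.925 for Klf13 and an adjusted p of 1 for each. Dot1l averaged 7.90 over all mice.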

How the data were processed

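Muscle RNA of 22 mice was hybridized to Illumina MouseWG-6 v2 arrays from 200 ng. The authors took GenomeStudio bead summaries, quantile normalized and filtered them with beadarray (versions and thresholds not given in the sources used here) and deposited log2 intensities. The log base is taken as 2 from the range and is not stated. Probe names came from GEO's platform annotation: 32093 probes had 1 symbol, 16 had several and 6454 none. The brightest probe stood for a gene, and a mean under 6 was called dim. ANTI-210 minus SCR was fitted on all probes with limma 3.58.1 (R 4.3.3), p-values adjusted by Benjamini-Hochberg over all probes. Correlations between mice used group-centred values and 100000 permutations within groups (numpy 2.4.6). The scripts were tested on simulated data. Members, lists and tests were chosen with earlier results of these data known, and the 36 pairs of members were added after the values had been seen. For each lipid list the 4 genes of smallest p were named, with every member, each adipocyte marker averaging 6 or more and the 8 genes most like Pnpla3. Mice sharing a replicate number did not vary together (correlations of their deviations -0.763 to 0.776, 4 of 11 over 0.1), so numbers were not used as pairs. The labels say that each array is a separate muscle sample. The number of arrays limits the precision.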

Additional observations from a re-analysis of the deposited data

How the results depend on the processing

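Alternatives were a repeated quantile normalization, cyclic loess, median centring, a robust eBayes with a trend, array weights, a brightness filter, the mean of all probes, the methods' t-test, a replicate block, each mouse left out, and each set of replicate numbers alone. The members' differences carry no p-value. Those of Acly, Elovl6, Me1, Dgat2 and Srebf1 changed sign between the sets of numbers. In numbers 4 to 11 all of these but Elovl6 lay within 1 standard error of 0. Of 297 re-estimates of the members' differences, 6 moved by more than the spread between mice, all within numbers 1 to 3. At an unadjusted limma p under 0.05, 1316 probes passed with all mice, 3628 with array weights, 492 among the brighter probes, 11283 within numbers 1 to 3, and 1110 to 1792 without 1 mouse. The methods' t-test gave 1416 probes unadjusted and 2 adjusted. After adjustment 2 passed, against 6 with array weights, 0 within numbers 4 to 11, 5457 within numbers 1 to 3, and 2 to 3 without 1 mouse. With the replicate block 1305 probes passed unadjusted and 1 adjusted, 1 gene of the regulator list passed, and Pnpla3 had a standard error of 0.15. Of the 22 mice 2 correlated best with the mouse of their own number. The lipid lists, with 0 genes past in all mice, gave 1 with cyclic loess and 4 with array weights for fatty acid synthesis, and 1, 1 and 2 with array weights for triglyceride synthesis, the patatin and droplet list and cholesterol synthesis. Within numbers 1 to 3 the counts were 16, 8, 12, 8 and 7 in the order of the text. Without 1 mouse they were 0 to 2 for the fatty acid and cholesterol lists, 0 to 1 for the patatin and regulator lists, and 0 for triglyceride synthesis. Counts of 2 came without ANTI-210 mouse 6, SCR mouse 7 or SCR mouse 6. The correlations with Pnpla3 past the adjusted threshold were 0 with all mice and 0 without any 1 mouse. They were 0 without the 2 farthest mice and 2 within numbers 4 to 11, a set drawn from the values. Of the pairs of members 9 passed with all mice, 5 within numbers 4 to 11 and 6 to 10 without 1 mouse. Of the 72 marker relations 18 passed, and 14 to 21 without 1 mouse. Array weights and the sets change which mice count. Otherwise the cause was not tested. Dim probes such as Fasn limit what can be seen.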
